A study of Mus musculus with 24 samples.

Results

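The 39 protein-coding Hox genes of the mouse were examined in peak lists from 2 mouse melanoma lines. They were taken by symbol (Hoxa, Hoxb, Hoxc or Hoxd followed by a number) from the RefSeq table of mm10, and form 39 of its 21900 protein-coding genes. The Hoxa cluster holds 11 of them on chromosome 6 (106 kb), the Hoxb cluster 10 on chromosome 11 (174 kb), the Hoxc cluster 9 on chromosome 15 (116 kb) and the Hoxd cluster 9 on chromosome 2 (96.9 kb). The WT group is the single line Kmt2d WT 971 and the mutant group the single line Kmt2d mutant 493, where Kmt2d is the gene of a histone H3 lysine 4 methyltransferase. The labels do not give the allele, the promoter or Cre, or the tumours the lines came from. Both were cultured in DMEM/F12 with serum and profiled by CUT&RUN, in which an antibody directs a nuclease to cut out the DNA around its target. There are 10 WT and 12 mutant lists, 1 library for each line and target, and the 2 IgG controls are not analysed here. Targets listed in both lines were H3K4me3, Menin, UTX, SMARCC1, ARID1A, ARID2, PBRM1, BRD9 and TFAP2A. KMT2D was listed in WT, and TFAP2B and a pair of SOX10 antibodies in the mutant. With 1 library and 1 line per genotype there is no replicate check and no test, and genotype and line cannot be told apart. A list holds no signal below the caller's threshold, so a gene without a peak is one not listed, not one shown to lack the protein or mark.

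Hox genes encode homeodomain transcription factors that give cells their position along the head-to-tail axis and the limbs. Within a cluster they lie in the order in which they act along the body, and genes of the same number in different clusters, called paralogues, are the closest relatives. H3K4me3 marks the starts of active or poised genes. At Hox clusters it is known to be laid down by the KMT2A and KMT2B complexes that contain Menin, and Polycomb complexes keep Hox genes silent in cells that do not use them. KMT2D works mainly at enhancers, with UTX, a histone H3 lysine 27 demethylase, as its partner. TFAP2A and TFAP2B are transcription factors of neural crest and pigment cells, and ARID1A and SMARCC1 are subunits of the SWI/SNF chromatin remodeller.

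In the mutant line the promoters of Hoxa3, Hoxa5 and Hoxd3 lay under listed peaks. Only 22 of the 39 Hox genes have a RefSeq promoter window, of 250 bases before to 50 after the start, and Hoxc5 and Hoxc6 have none. The bases before these 3 start sites are shown because a peak touched the window there and at no other Hox window. The promoter of Hoxd9 is shown because it held the most TFAP2 motifs of the Hox windows and no peak touched it. The sequences are RefSeq's for GRCm38.p6, which is mm10, and capitals mark GCCNNNGGC, a form of the TFAP2 motif that reads the same on both strands as a pattern. Hoxa3 is read from the minus strand of chr6:52213068-52213317, Hoxa5 from the minus strand of chr6:52204588-52204837, Hoxd3 from the plus strand of chr2:74711743-74711992 and Hoxd9 from the plus strand of chr2:74697513-74697762. Each runs 5′ to 3′ and ends at the base before the start.
Hoxa3: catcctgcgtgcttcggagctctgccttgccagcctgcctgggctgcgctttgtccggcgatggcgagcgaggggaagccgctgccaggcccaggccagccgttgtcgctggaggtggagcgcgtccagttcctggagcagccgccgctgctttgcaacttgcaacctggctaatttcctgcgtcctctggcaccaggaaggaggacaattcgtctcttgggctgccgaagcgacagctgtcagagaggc
Hoxa5: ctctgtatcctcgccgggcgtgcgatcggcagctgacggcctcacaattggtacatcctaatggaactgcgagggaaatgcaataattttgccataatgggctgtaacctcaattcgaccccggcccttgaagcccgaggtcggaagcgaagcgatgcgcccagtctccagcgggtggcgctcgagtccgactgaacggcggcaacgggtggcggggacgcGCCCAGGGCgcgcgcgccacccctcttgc
Hoxd3: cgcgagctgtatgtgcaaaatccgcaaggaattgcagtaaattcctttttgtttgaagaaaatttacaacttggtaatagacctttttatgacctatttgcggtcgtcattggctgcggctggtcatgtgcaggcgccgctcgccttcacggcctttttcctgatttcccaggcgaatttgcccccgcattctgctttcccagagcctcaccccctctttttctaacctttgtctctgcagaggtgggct
Hoxd9: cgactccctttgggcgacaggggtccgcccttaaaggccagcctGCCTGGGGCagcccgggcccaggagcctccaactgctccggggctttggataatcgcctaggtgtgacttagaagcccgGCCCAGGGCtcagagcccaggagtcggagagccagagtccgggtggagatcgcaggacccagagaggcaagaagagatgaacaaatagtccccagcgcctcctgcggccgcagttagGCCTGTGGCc

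In the WT line no peak of the 10 lists lay over any Hox cluster with 20 kb on each side, so KMT2D, Menin, UTX, H3K4me3 and TFAP2A were all unlisted there. All 39 Hox genes were without a WT peak within 20 kb, against 28.2% of all coding genes. The 39 genes lie in 4 clusters and share their flanks, so they are not separate absences. The nearest WT peak lay 45.1 kb from Hoxa13 at the closest and 151 kb from Hoxc6 and Hoxc8 at the farthest, with a median of 101 kb. The windows cover 652 kb, and at the rate of 5.21 WT peaks per 100 kb found over all coding gene loci they would hold 34.0 WT peaks. By target that rate corresponds to 6.37 H3K4me3, 5.83 Menin, 4.60 TFAP2A, 3.42 UTX and 2.38 KMT2D peaks. The stretch between the nearest WT peaks was 293 kb at Hoxa, 338 kb at Hoxb, 322 kb at Hoxc and 246 kb at Hoxd, where the median of all WT stretches of at least 20 kb was 54.8 kb. Among those 18374 stretches they ranked 1387, 1180, 1247 and 1698 by length, so many elsewhere were longer. Each Hox stretch holds a whole cluster without a peak, so a length above the median follows from the absence already given. Genes outside the Hox genes within these stretches were Evx2, a homeobox gene beside Hoxd13, and Calcoco2 and Ttll6 beside Hoxb13.

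The mutant line had 21 peaks over the same windows, in 4 of its 12 lists: 10 of H3K4me3, 8 of TFAP2A, 2 of TFAP2B and 1 of ARID1A. The Hoxa cluster held 8, the Hoxd cluster 6, the Hoxb cluster 5 and the Hoxc cluster 2. Menin, UTX, SMARCC1, ARID2, PBRM1, BRD9 and both SOX10 lists held none. The H3K4me3 density was 1.53 peaks per 100 kb, beside 1.08 over all coding gene loci, and that of TFAP2A was 1.23 beside 1.10. The ARID1A density was 0.153 beside 1.32, and that of Menin 0 beside 1.11, a rate at which the windows would hold 7.22 Menin peaks. These rates do not allow for how closely genes lie. Counted by gene, H3K4me3 lay within 1 kb of an end of 20.5% of Hox genes, beside 53.8% of all coding genes. For TFAP2A the shares were 7.69% and 34.0%. A mutant peak lay within 20 kb of 26 of the 39 genes, and the other 13 had none, as did 25.1% of all coding genes. That pattern, no WT peak and a mutant peak within 20 kb, held for 4.59% of all coding genes, or 16.3% of those without a WT peak there. The 26 genes share the same 21 peaks, 8 of which overlapped a peak of another target, so they are not separate events.

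**Figure D1:**
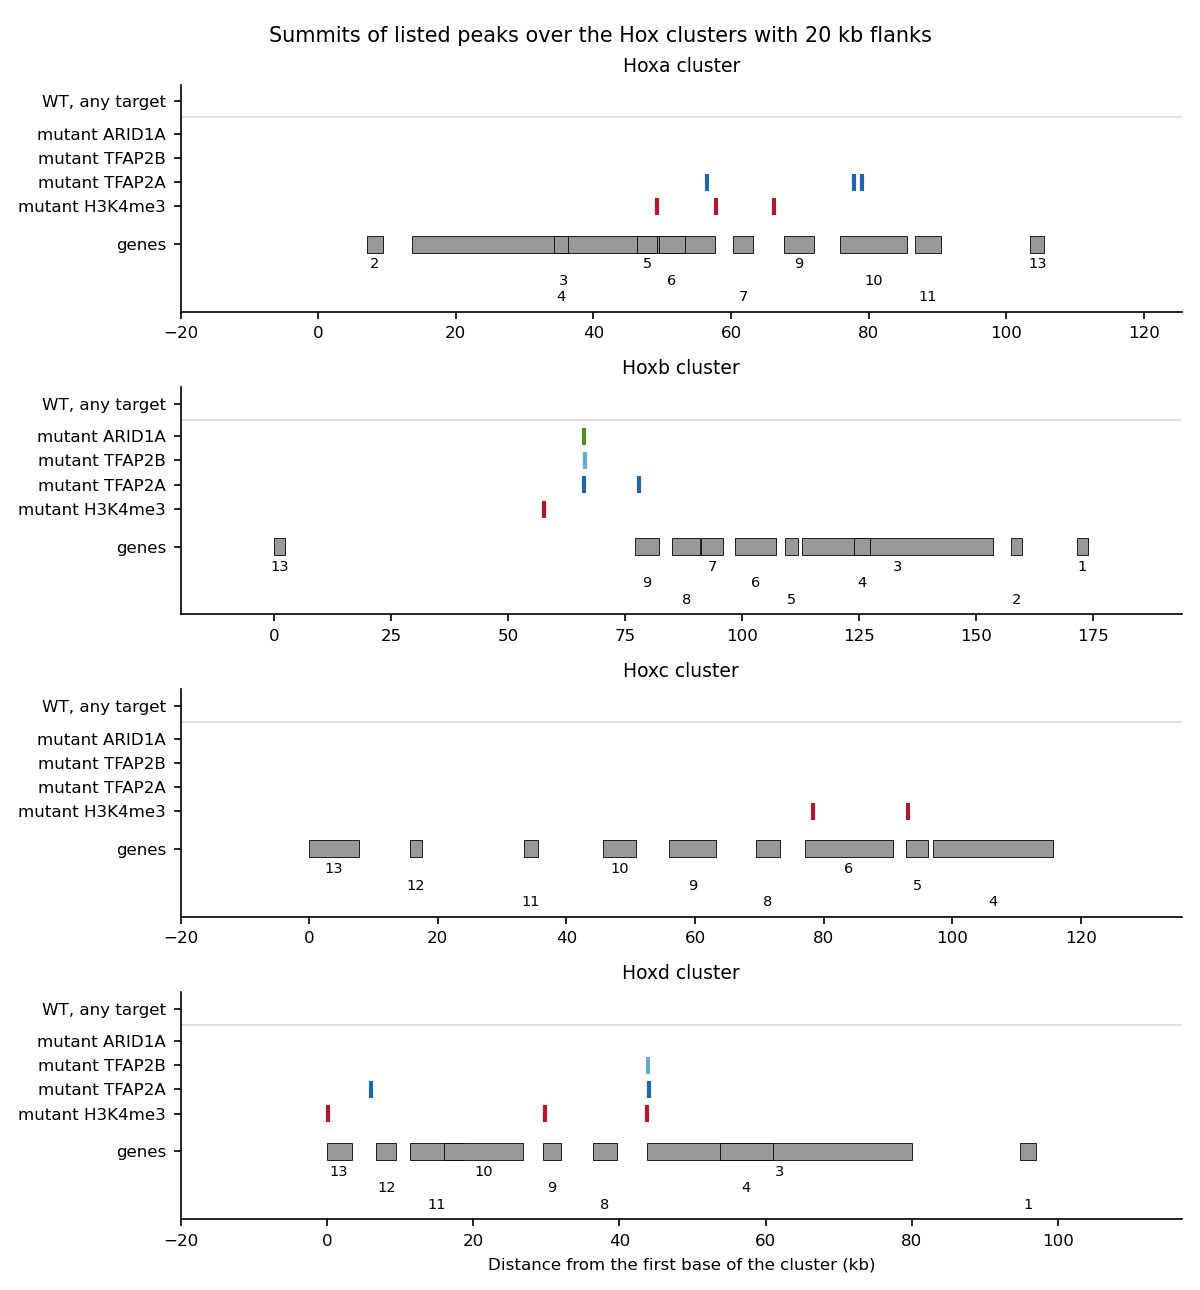
Each panel is 1 Hox cluster, with distance in kb from its first base on the x axis, gene bodies in grey with their paralogue numbers, and peak summits as ticks by target. Not every gene and peak of the Hoxa cluster is drawn. The WT row is empty in every panel, and the mutant line shows 5 peaks over Hoxb, 2 over Hoxc and 6 over Hoxd.

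H3K4me3 in the mutant line was listed within 1 kb of either end of 8 of 39 Hox genes, here called a gene-end peak, and in the WT line of 0. These were Hoxa3, Hoxa5, Hoxa6, Hoxc5, Hoxc6, Hoxd3, Hoxd9 and Hoxd13. Over all coding genes the mutant H3K4me3 list reached 53.8%, the WT list 49.3%, the mutant list alone 5.09% and the WT list alone 0.543%. Among genes with none in the WT list, 10.0% had one in the mutant list, and the Hox genes stood at 20.5% (8 of 39). Hoxb was the cluster with no H3K4me3 gene-end peak. By paralogue number, 2 of 3 genes were called in group 3 (Hoxa3 and Hoxd3), 2 of 3 in group 5 (Hoxa5 and Hoxc5) and 2 of 3 in group 6 (Hoxa6 and Hoxc6), 1 of 4 in group 9 and 1 of 4 in group 13, and none in the other groups. Hoxa3 is annotated over 44009 bp that enclose Hoxa4 to Hoxa6, and Hoxd3 over 36279 bp that enclose Hoxd4. Their called ends thus lie between Hoxa6 and Hoxa7 and between Hoxd8 and Hoxd4, away from the rest of group 3. With peaks of a −log10 q of at least 5 alone, the count was 2 of 39 (Hoxa3 and Hoxc6), or 5.13%. Of all coding genes 5.67% were in the mutant list alone, so the Hox share was not above that background. The 5.67% counts all genes, 46.1% of which had a WT peak at that threshold. It thus understates the share among genes without one. With the start sites of the 22 genes that have one in the promoter table the Hox count was 5.

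Of the gene-end peaks, Hoxc6 had the strongest. Hoxc6 acts in thoracic and forelimb patterning, and its peak (chr15:102998909-102999825, 917 bp) had a fold enrichment of 7.72, the authors' ratio of fragments over background at the summit. The peak at the lower-coordinate end of Hoxc5, a neighbouring cervical and upper thoracic gene, stood at 4.43 (chr15:103013961-103014450). Mir615, which lies within Hoxc5, was 460 bp from that peak. Hoxa3, a gene of pharyngeal arch and thymus development, had a 503 bp peak (chr6:52212929-52213431) at 6.07 whose summit lay 47 bp upstream of the start. Hoxa5, needed for lung and cervical vertebrae, had the narrowest H3K4me3 peak of the clusters, 185 bp (chr6:52204557-52204741) at a fold of 4.10, with its summit 2 bp into the gene. This peak also lay 117 bp from the end of Hoxa6, so both genes were called by the same peak. These promoters are those printed above for Hoxa3 and Hoxa5.

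In the Hoxd cluster Hoxd13, a gene of digit and genital tubercle patterning, had a peak of fold 5.73 with its summit 203 bp into the gene. Hoxd9, which acts in limb and lumbar patterning, stood at 4.09 with its summit 268 bp into the gene. Hoxd3, the paralogue of Hoxa3, stood at 5.42 with the summit 39 bp into the gene. The 3 peaks were 266 bp (chr2:74668313-74668578), 341 bp (chr2:74697999-74698339) and 461 bp (chr2:74711840-74712300) wide.

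The other 3 H3K4me3 peaks lay outside the 1 kb windows, and those near Hoxa9 and Hoxb9 are described here. A peak of 6.73 (chr6:52221417-52221754) lay between Hoxa7 and Hoxa9, 1343 bp from Hoxa9 and 2192 bp from Hoxa7. A peak of 4.76 (chr11:96251880-96252134) lay between Hoxb13 and Hoxb9, 19.2 kb from Hoxb9, over the lncRNA gene Gm53. With the window widened to 2.5 kb, 11 Hox genes (28.2%) were called in the mutant line and 0 in WT, beside 51.9% of all coding genes in WT and 5.13% in the mutant list alone. The 5.13% counts all genes, and the share among those without a WT peak is higher. The Hox genes added included Hoxa7 and Hoxa9.

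All 10 H3K4me3 peaks over the clusters were below the median of their list. Their folds ran from 4.09 to 9.69 with a median of 5.58, where the mutant list had a median of 16.5. The peak at Hoxc6 exceeded 25.0% of the list and the lowest, at Hoxd9, 1.86%. They were also narrow, 185 to 917 bp with a median of 401 bp, beside 1273 bp for the list. The −log10 q, the caller's confidence after correction, reached 5 at 4 of the 10, among them Hoxc6 (9.29), the site near Hoxa9 (7.71) and Hoxa3 (6.18). At Hoxa5 it was 1.99, where the lowest of the list was 1.35.

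TFAP2A had gene-end peaks in the mutant line at 3 of 39 Hox genes, Hoxd3, Hoxb9 and Hoxd12, and in WT at 0. The mutant TFAP2A list reached 34.0% of all coding genes, the WT list 24.6%, the WT list alone 1.21%, and the mutant list alone 10.6%, or 14.1% of genes without one in WT. The Hox share was 7.69% (3 of 39), too few genes to set apart from that background. With a 2.5 kb window it was 6 of 39 (15.4%), beside 11.7% of all coding genes in the mutant list alone. That 11.7% counts all genes, 28.0% of which had a WT peak, so the share among genes without one is higher. The Hox share is therefore not shown to be raised. Hoxd3 had the highest fold of all Hox peaks, 15.3 (chr2:74711891-74712529), above 74.6% of the TFAP2A list, with its summit 256 bp into the gene. Hoxb9, a thoracic and motor neuron gene, stood at 6.44 (chr11:96271687-96272379), 357 bp inside the gene. Hoxd12, a distal limb gene, stood at 3.39, above 0.901% of the list, with its summit 782 bp before the start.

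The other TFAP2A peaks lay farther from gene ends. The second highest, 14.4 (chr11:96260432-96260913), fell between Hoxb13 and Hoxb9, 10.4 kb from Hoxb9 and within Gm53. It lay 4.25 kb from Mir196a-1, a microRNA gene of the cluster. A peak of 6.07 lay inside Hoxa3, 1074 bp from a gene end. Hoxa10, a gene of lumbar and uterine patterning, held peaks of 5.09 and 4.24, with summits 1731 and 624 bp after the nearer of its annotated starts. In all, 6 of the 8 TFAP2A peaks were below the list median of 8.48, and 5 had a −log10 q of at least 5. For Hoxd3 and the Gm53 site it was 25.9 and 24.0.

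**Figure D2:**
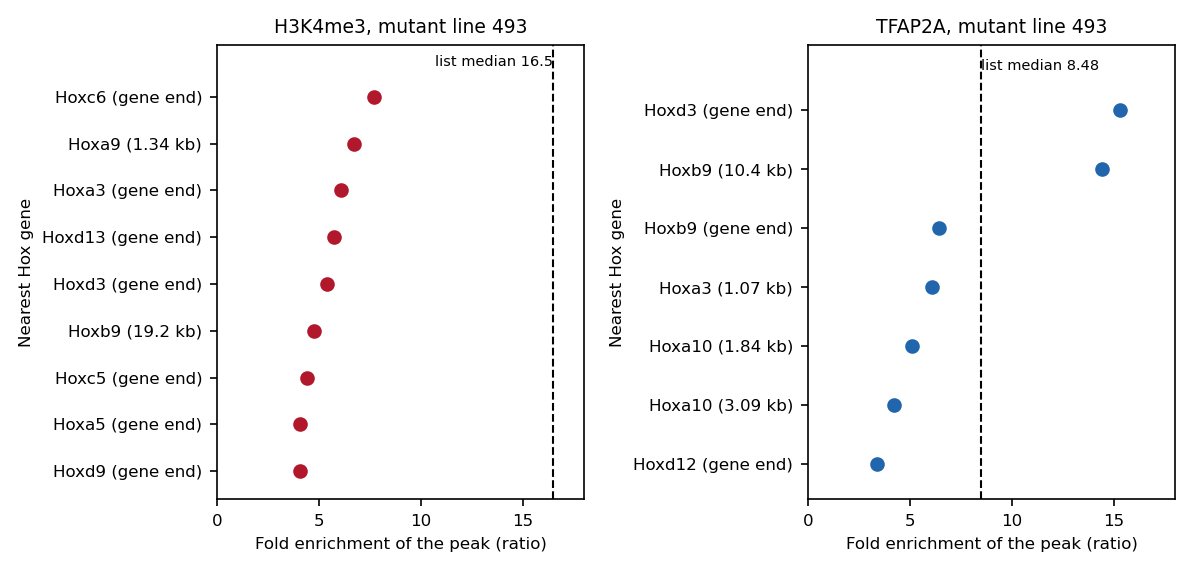
Fold enrichment (ratio, x axis) of mutant H3K4me3 and TFAP2A peaks over the Hox clusters, not all of which are drawn, labelled by the nearest Hox gene and, where it is no gene-end peak, the distance to it. The dashed lines are the list medians, 16.5 and 8.48: the H3K4me3 peaks lie below theirs, and 2 TFAP2A peaks, at Hoxd3 (15.3) and 10.4 kb from Hoxb9 (14.4), lie above.

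Gene-end peaks of the other targets were few. Menin, the subunit of the KMT2A and KMT2B complexes, was listed at 0 of 39 Hox genes in either line, where it reached 31.6% of all coding genes in WT, 37.9% in the mutant and 8.28% in the mutant alone. UTX, also at 0 in either line, reached 11.2% in WT and 8.86% in the mutant. KMT2D, at 0 of 39 in WT, reached 10.2%. ARID1A was at 0 in either line, beside 15.7% in WT and 20.9% in the mutant. TFAP2B was listed at Hoxd3 alone, 1 of 39, beside 21.9% in the mutant, and both SOX10 antibodies were at 0, beside 3.83% and 0.991%.

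Targets overlapped at Hoxd3 and at the Gm53 site, among other places. At Hoxd3, H3K4me3, TFAP2A and TFAP2B (fold 5.33, −log10 q 5.08) overlapped, with the TFAP2B summit 127 bp from that of TFAP2A and 90 bp from that of H3K4me3. The lncRNA gene Hoxd3os1 overlaps all 3 peaks, and Gm38462 those of H3K4me3 and TFAP2A. At the Gm53 site, TFAP2A, TFAP2B (4.44) and the only ARID1A peak of the clusters (5.80) overlapped, with the ARID1A summit 155 bp from that of TFAP2A and no H3K4me3. The windows hold 27 lncRNA genes, of which 6 were overlapped by a mutant peak, and 6 microRNA genes, of which none was. Some of these lncRNA genes share peaks, as Hoxd3os1 and Gm38462 do. No share over all lncRNA or microRNA genes was computed, so these counts have no background beside them.

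The company of these peaks was set beside that of their lists. None of the 10 H3K4me3 peaks overlapped Menin, which overlapped 62.0% of the mutant H3K4me3 list and 30.6% of its 5063 peaks in the same range of fold. TFAP2A overlapped 2 of 10, beside 50.8% of the list and 25.6% in that range. ARID1A overlapped 0 of 10, beside 31.3% and 21.0%. No WT H3K4me3 peak overlapped any of them, where 79.8% of the list and 45.8% of the same range had one. Of the 8 TFAP2A peaks, 2 overlapped TFAP2B (43.1% of the list, 27.4% in the range), 2 H3K4me3 (49.9% and 45.2%), 1 ARID1A (54.4% and 46.5%) and 0 the more productive SOX10 antibody (16.5% and 13.7%). The counts of 0 for Menin, WT H3K4me3 and SOX10 follow from the absence of those peaks from the windows, already given, and are no further result.

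Across all targets, 10 of 39 Hox genes had a mutant gene-end peak of a target listed in both lines, 4 in Hoxd, 3 in Hoxa, 2 in Hoxc and 1 in Hoxb. None had one in WT. Of all coding genes 55.8% had one in the mutant line, 51.6% in WT and 5.22% in the mutant line alone. At a −log10 q of at least 5 the Hox count in the mutant line was 4. The remaining 29 had none, among them Hoxa2, Hoxa4, Hoxa7, Hoxa9, Hoxa10, Hoxa11 and Hoxa13, all Hoxb genes other than Hoxb9, all Hoxc genes other than Hoxc5 and Hoxc6, and Hoxd1, Hoxd4, Hoxd8, Hoxd10 and Hoxd11. Hoxb1, at the 3′ end of its cluster, was 45.3 kb from the nearest mutant peak, and Hoxc13 was 70.1 kb away. Within Hoxc the peaks lay towards Hoxc5 and Hoxc6, and Hoxc10 to Hoxc13 had no mutant peak within 20 kb.

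The fragments behind these peaks were few. Solving the authors' fold and p for whole fragments gave 21 at the summit of the Hoxc6 H3K4me3 peak, 16 at Hoxa3 and 10 at Hoxa5. For TFAP2A it gave 17 at Hoxd3, 16 in Gm53 and 3 at Hoxd12. Peaks of so few fragments fix a fold only loosely, and no interval is given because each is the highest point of its region.

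Depth differed between the lines, and was higher in the mutant for 8 of the 9 targets listed in both and lower for SMARCC1, at 0.393 of the WT depth. The depth at which each list was called, reconstructed from fold and p, was 2210000 fragments for mutant H3K4me3 and 1190000 for WT, a ratio of 1.86, and the ratio was 1.81 for TFAP2A and 1.85 for ARID1A. Each Hox peak of these targets was therefore scaled down by its ratio and set against the lowest −log10 p in the WT list, 3.46 for H3K4me3 and 3.92 for TFAP2A. Of the 19 peaks, 15 stayed above it: 9 of 10 H3K4me3, 5 of 8 TFAP2A and the ARID1A peak. Hoxd9 H3K4me3 (3.17), Hoxd12 TFAP2A (2.34) and both Hoxa10 TFAP2A peaks (3.83) fell below it. H3K4me3 at Hoxa5, Hoxc5 and the site 19.2 kb from Hoxb9 stayed by a small margin, at 3.62. The TFAP2A peaks at Hoxd3 and in Gm53 kept 16.7 and 14.7.

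**Figure D3:**
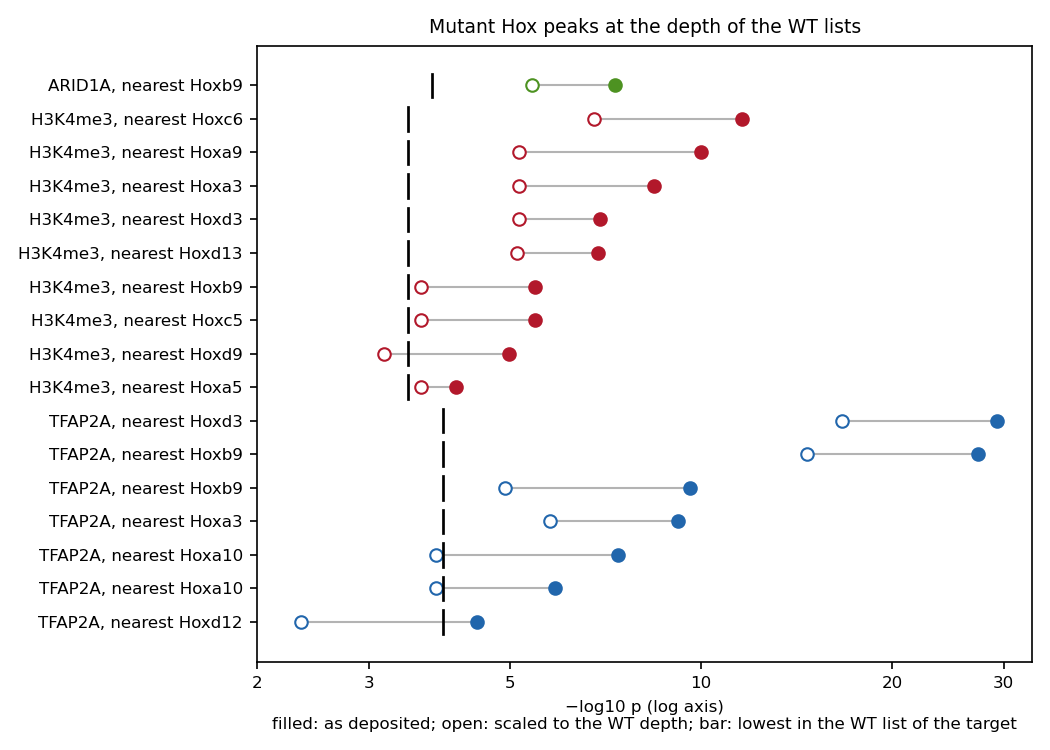
The −log10 p (log axis) of mutant Hox peaks, not all of which are drawn, as deposited (filled) and scaled to the depth of the WT list (open), with the lowest value of the WT list as a black bar. Open points lie to the right of their bar, other than those of Hoxd9, Hoxd12 and Hoxa10 (a pair of peaks), which lie to its left.

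In the RefSeq promoter table, 22 of the 39 Hox genes had an entry, 24 windows in all. The TFAP2 pattern GCCNNNGGC stood in 6 of 24 (25.0%), beside 19.9% of 21263 windows of all coding genes. Over all windows a mutant TFAP2A peak touched 52.2% of those with the pattern and 24.2% of those without. None of the 6 Hox windows with it was touched, and 1 of the 18 without it was, Hoxd3. The Hoxa5 window held it once, from 29 bases before the start, and the Hoxd9 window 3 times, from 206, 127 and 10 bases before the start. H3K4me3 touched 3 of the 24 Hox windows (12.5%), beside 51.7% of all. Their median ratio of observed to expected CpG was 0.626, beside 0.567 for all windows, so the Hox windows held CpG at about the usual level. TGATNNAT, a pattern of paired PBX and HOX proteins, searched on both strands, stood in 16.7% of Hox and 7.45% of all windows. The SOX pattern ACAANG stood in 33.3% and 38.1%, and its narrower form ACAAAG, whose every match is also one of ACAANG, in 25.0% and 16.8%. These matches describe letters in the windows and not binding.

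Of the 16 coding genes nearest to the clusters on either side, 10 had H3K4me3 gene-end peaks in both lines. These were Snx10, Skap2 and Hibadh around Hoxa, Snx11 beyond Hoxb, Atp5g2, Calcoco1, Smug1 and Cbx5 around Hoxc, and Lnpk and Mtx2 around Hoxd. At Mtx2, 60.7 kb from the Hoxd cluster, H3K4me3 stood at 8.76 in WT and at 18.6 in the mutant line, though folds of different lists are not on 1 scale. The other 6 had no gene-end peak of any target in either line: Evx1 and Evx2, homeobox genes at the ends of Hoxa and Hoxd, Calcoco2, Ttll6 and Skap1 around Hoxb, and Gm50595 beyond Hoxd.

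Other homeobox genes of development, a list of 81 that holds no Hox gene, had H3K4me3 gene-end peaks at 25 in WT and 39 in the mutant, 14 in the mutant alone and 0 in WT alone. That is 25.0% of the 56 without a WT peak, beside 20.5% of the Hox genes and 10.0% of all coding genes without one. The highest of the 14 were Emx2, a forebrain and urogenital gene, at a fold of 40.9, En1 (17.2) and En2 (10.0), genes of the midbrain and hindbrain border, Hmx3 (12.6), Nkx6-1 (9.69) and Tlx1 (9.36). Menin was listed at 10 of the 81 (12.3%) in WT and 14 (17.3%) in the mutant, beside 31.6% and 37.9% of all coding genes. In the mutant alone it was listed at 5 (6.17%, beside 8.28% of all coding genes): Shox2 (16.3), Emx2 (13.6), Nkx3-2 (11.6), En1 (5.97) and Irx2 (4.82). In WT alone it was listed at Dlx1 (27.0), 1 of 81 beside 1.92% of all coding genes. For TFAP2A, 9 of 81 (11.1%) were called in the mutant alone, a share near the 10.6% of all coding genes, with Emx2 highest at 16.1. Lhx6 (7.03) and Msx1 (5.35) were called in WT alone.

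H3K4me3 marked most partners of Hox genes and most Trithorax-side and Polycomb genes in both lines, but fewer of the upstream regulators. Beside the counts below, H3K4me3 reached 49.3% of all coding genes in WT and 53.8% in the mutant. TFAP2A was listed at 10.6% of all coding genes in the mutant alone and at 1.21% in WT alone. Of 9 TALE genes, whose proteins bind DNA together with Hox proteins, H3K4me3 marked 8 in WT and 9 in the mutant, the added gene being Meis3 (13.0). TFAP2A was listed in the mutant alone at 4 of them, among them Meis2 (6.22), Pknox2 (5.09) and Meis1 (4.24), and in WT alone at Pbx4 (6.47) and Pbx2 (4.23). H3K4me3 marked 13 of 14 Trithorax-side genes and 14 of 15 Polycomb genes in each line. TFAP2A marked 5 Polycomb genes in both lines and 5 in the mutant alone, the highest being Jarid2 (10.2) and Bmi1 (8.48). Of 11 regulators acting upstream of Hox genes, such as Cdx and retinoic acid receptor genes, 5 had H3K4me3 in each line, and Gdf11 had TFAP2A in the mutant alone (9.31).

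**Figure D4:**
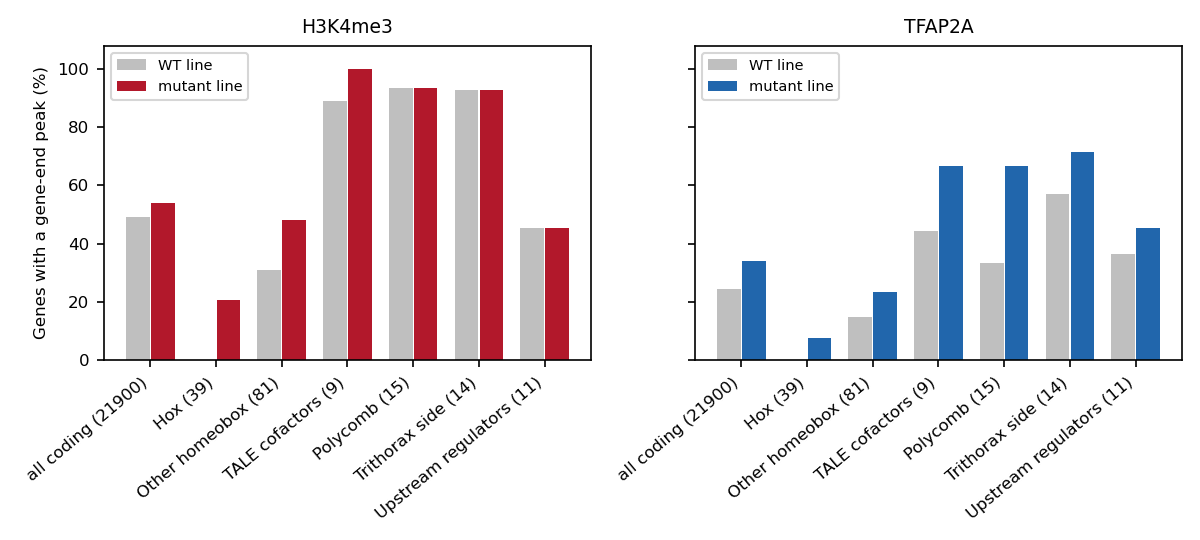
Percent of genes (y axis, from 0) with an H3K4me3 or TFAP2A gene-end peak in the WT (grey) and mutant (coloured) lists, for all coding genes and 6 gene lists with their sizes in brackets. Hox genes stand at 0 in WT and at 20.5% for H3K4me3 and 7.69% for TFAP2A in the mutant, below the 53.8% and 34.0% of all coding genes.

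The labelled melanoma identity was checked at 12 melanocyte lineage genes. H3K4me3 gene-end peaks stood at 5 of them in WT and 6 in the mutant, the added gene being Sox10 (8.37), so that neither share of the 12 was above the 49.3% (WT) and 53.8% (mutant) of all coding genes. Gpnmb, Mitf, Mc1r, Erbb3 and the pigment gene Pmel had one in both lines. Tyr, Tyrp1, Dct, Mlana, Ednrb and Kit had none in either line. Fibroblast markers had 4 of 8 in each line, keratinocyte markers 1 of 6, endothelial markers 1 of 4 and blood cell markers 0 of 4. The part of cell identity in the Hox difference was not tested.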

How the data were processed

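CUT&RUN fragments from 22 libraries were represented by the peak lists the authors deposited. Per the submitters' processing notes, FastQC, MultiQC, Bowtie2 and MACS2 were used with mm10. How the caller was set is not given in the sources used here. From each deposited row the fold enrichment, a ratio made by the authors, and the deposited −log10 values of p and q were read. The deposited score was not used. The 197727 peaks were placed on the 21900 protein-coding genes of the RefSeq table of GRCm38.p6, which gives no strand. A gene-end peak touched 1 kb around either gene end by at least 1 bp. Clusters and genes were also counted with 20 kb flanks. Fold enrichment was compared within a list only.

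The background level was taken as the commonest value that solves fold = (pileup + 1)/(background + 1) and p, the Poisson tail, over a list's weaker peaks. The depth is that level divided by the shortest peak, times the genome size the caller was assumed to use, so ratios between lists carry less error than the depths. Placement and reconstruction were checked on simulated data. Computations used Python 3.11.15, NumPy 2.4.6, pandas 2.3.3 and SciPy 1.17.1.

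The members and the gene lists were chosen with earlier results of these data known. All Hox genes with a gene-end peak were named, the other genes by cluster; of other lists, up to 6 genes called in 1 line per target were named by fold. Some members and list genes are counted in the totals but not reported singly here.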

Additional observations from a re-analysis of the deposited data

How the results depend on the processing

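No WT count changed from 0 under a 2.5 kb window, gene starts alone, summits alone, no flank, equal depth, a −log10 q of at least 5 or without regions called in at least 15 libraries. With flanks of 100 kb, WT peaks of targets listed in both lines numbered 1 at Hoxa, 1 at Hoxb, 2 at Hoxc and 4 at Hoxd, and mutant peaks rose from 2 to 4 at Hoxc and from 5 to 13 at Hoxd. At a −log10 q of at least 5, the Hox genes with H3K4me3 in the mutant line fell from 8 to 2 (Hoxa3 and Hoxc6). That is 5.13%, beside 5.67% of all coding genes called in the mutant alone, where 46.1% had a WT peak. Hox genes with any target listed in both lines fell from 10 to 4. The cluster counts then were 5 of 8 at Hoxa, 2 of 4 at Hoxb, 1 of 2 at Hoxc and 1 of 5 at Hoxd. With gene starts alone, which only 22 Hox genes have in the promoter table, H3K4me3 genes numbered 5. At equal depth the Hoxd count was 3. No paired analysis was possible because each line and target has 1 library. Leaving out a replicate was not possible for the same reason. The other settings left every mutant count within 1.5 times its value. Of the 21 mutant peaks, 10 had a −log10 q of at least 5, and WT peaks below the caller's threshold cannot be seen in the lists.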

Other observations

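Beyond the 20 kb flanks, the stretches that held no WT peak contained 2 further mutant peaks, both of ARID1A. That 30.5 kb beyond Hoxd1 (chr2:74795614-74795837) had a fold enrichment of 5.80. That 109 kb beyond Hoxc4 (chr15:103145719-103145958) had 14.3, above the list median of 9.68.

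Among the noncoding genes of the clusters, Hotair in Hoxc and Hottip beside Hoxa13, lncRNA genes known from work on Hox regulation, were 51.0 kb and 28.3 kb from the nearest mutant peak. Haglr beside Hoxd1 was 35.9 kb from the nearest mutant peak within the 20 kb flanks, and the ARID1A peak beyond Hoxd1 lay nearer to it. The lncRNA gene Hoxaas3, which runs from Hoxa5 to Hoxa3, was overlapped by 3 mutant peaks, and Gm53 by 4. The microRNA genes Mir10a and Mir10b were 44.8 kb and 13.5 kb from the nearest mutant peak.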
